A study of Homo sapiens with 4 samples.

Results

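The 10 genes described here are metallothioneins and zinc handling genes, taken by symbol from a table of 17791 genes: MT2A, MT1X, MT1E and MT1F, the metal-sensing factor MTF1, the zinc exporter gene SLC30A1 and the zinc importer genes SLC39A1, SLC39A6, SLC39A10 and SLC39A14. All 10 were in the table, and they were chosen by symbol with their counts and folds in all 4 libraries already in view, so those values are a description and carry no test. The RNA came from engineered tissues at day 15, grown untreated from human cells inside a poly(ethylene glycol)-fibrinogen hydrogel. The 4 groups, of 1 library each, were PC-3 alone, LNCaP alone, and each line seeded with BJ-5ta fibroblasts at 5 cancer cells to 1 fibroblast. PC-3 is a prostate cancer line labelled CRPC-ne by the submitters, LNCaP is labelled ADPC, and BJ-5ta cells are immortalised fibroblasts from normal human skin. The culture protocol given with all 4 samples names PC-3 and its medium only, so the medium of the LNCaP tissues is not given in the sources used here. RNA came from more than 2 tissues per group, and the spread between tissues cannot be seen. Every interval below is a 95% interval of counting error only, and each difference compares 2 libraries, not 2 conditions.

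Metallothioneins are small, cysteine-rich proteins that bind zinc, copper and cadmium in the cytosol. Zinc enters the cytosol through importers of the SLC39 family and leaves it, across the plasma membrane or into vesicles and organelles, through transporters of the SLC30 family. When free zinc rises, MTF1 binds metal response elements and raises transcription of metallothionein genes and of SLC30A1. Normal prostate epithelium is known for storing much zinc and secreting citrate, and prostate cancers commonly lose this store.

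The metal response elements are short, and their core lies in several copies upstream of MT2A and MT1X. The core was searched as TGCACNC and as TGCGCNC, on both strands, in the 250 bases before each RefSeq transcription start (GRCh38.p14). The windows of MT2A (chr16:56608334-56608583, plus strand), MT1X (chr16:56682220-56682469, plus strand) and SLC30A1 (chr1:211579162-211579411, minus strand) are printed. MT2A and MT1X were chosen because both were lower in the PC-3 coculture and higher in the LNCaP coculture before any length correction. Between the LNCaP and PC-3 monocultures only MT1X of this pair differed beyond counting error. SLC30A1 was chosen as the exporter gene that MTF1 is known to control. Capitals mark the matches, and where the match is on the other strand its reverse complement is in capitals.
MT2A: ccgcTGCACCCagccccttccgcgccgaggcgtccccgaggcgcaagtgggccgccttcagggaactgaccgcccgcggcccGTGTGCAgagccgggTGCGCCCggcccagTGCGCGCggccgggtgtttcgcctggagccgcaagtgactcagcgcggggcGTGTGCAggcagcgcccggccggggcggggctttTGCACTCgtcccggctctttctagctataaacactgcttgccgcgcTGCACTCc
MT1X: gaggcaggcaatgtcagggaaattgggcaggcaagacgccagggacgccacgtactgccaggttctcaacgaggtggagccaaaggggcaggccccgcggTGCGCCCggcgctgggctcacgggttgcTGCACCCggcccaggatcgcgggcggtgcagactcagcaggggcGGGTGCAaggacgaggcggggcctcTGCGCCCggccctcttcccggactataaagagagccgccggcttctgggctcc
SLC30A1: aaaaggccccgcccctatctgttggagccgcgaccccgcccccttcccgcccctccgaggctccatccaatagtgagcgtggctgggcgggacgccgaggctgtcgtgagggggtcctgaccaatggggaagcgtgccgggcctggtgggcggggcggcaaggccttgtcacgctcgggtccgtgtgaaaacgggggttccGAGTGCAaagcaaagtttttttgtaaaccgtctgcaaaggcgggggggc

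MT2A had 7 matches and MT1X had 4, with no overlap between matches in either window. SLC30A1 had 1, in the last 50 bases before its start. Of 35114 promoter windows of the same length, 24.8% held at least 1 match, 0.37% at least 4 and 0.0313% at least 7. Among the other members with a window, SLC39A6 had 1 match, SLC39A1 had 1 in the window of 1 of its 2 starts, and MTF1 and the 2 windows of SLC39A10 had 0. No window of MT1E, MT1F or SLC39A14 is given here, so their matches are not known. Outside the members, the same search found 8 matches for MT1H and 3 each for MT1B and MT4, which are not among the genes of the count table, and 2 in a window of SLC30A3. A match describes these letters only and shows no binding.

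**Figure D1:**
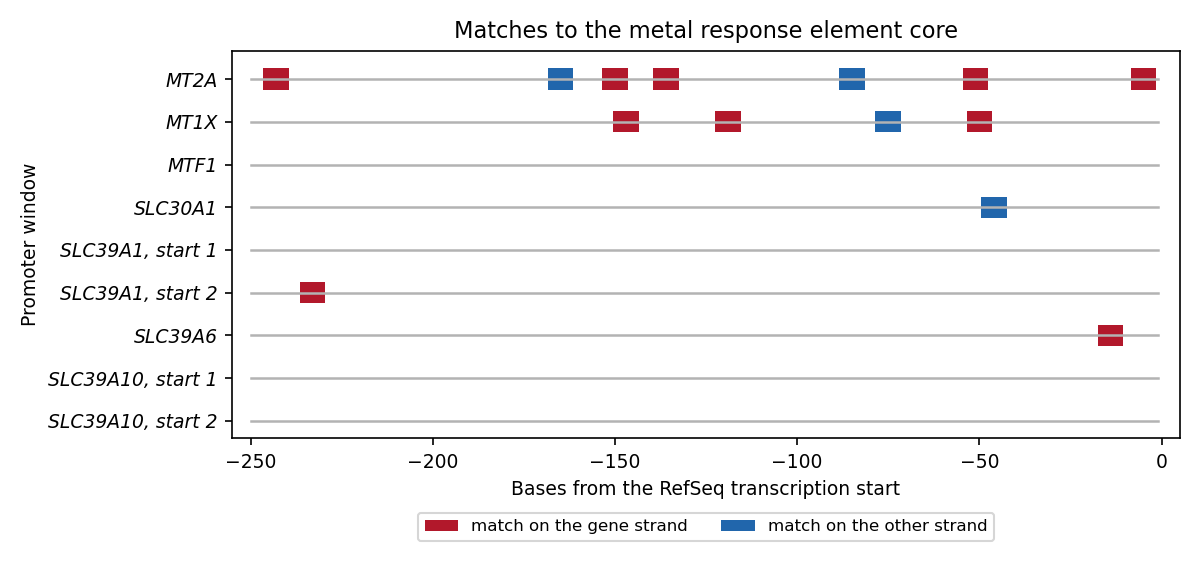
Matches to the metal response element core in the 250 bases before each RefSeq start, with the distance from the start in bases on the x axis and 1 row per promoter window; red blocks are matches on the gene's strand and blue blocks on the other strand. MT2A carries 7 blocks and MT1X 4, against 0 or 1 in every other member window drawn. MT1E, MT1F and SLC39A14 are not drawn.

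MT2A, the most abundant metallothionein here, had 963 counts in the PC-3 monoculture, 809 in the PC-3 coculture, 998 in the LNCaP monoculture and 1655 in the LNCaP coculture. As CPM, the count relative to the TMM-scaled library total, this was 60.3, 51.6, 63.2 and 107 in the same order. The LNCaP coculture stood above the other 3 libraries, which lay close together. MT1X, a metal-inducible member of the same cluster, had 186 counts in the PC-3 monoculture, 114 in the PC-3 coculture, 397 in the LNCaP monoculture and 527 in the LNCaP coculture. Both LNCaP libraries were above both PC-3 libraries for MT1X. MT1F had 41, 35, 53 and 49 counts in the order PC-3 monoculture, PC-3 coculture, LNCaP monoculture and LNCaP coculture. Its level was low in all 4 libraries, between 2.23 and 3.36 CPM. MT1E had 0 counts in either monoculture and 6 counts in each coculture. With 0 counts seen, as many as 3 are possible, which is 0.188 CPM for the PC-3 monoculture and 0.19 CPM for the LNCaP one, so MT1E was at least 2.04-fold higher in either coculture by this floor, while the counting interval, which also covers the error of the 6 counts, reached down to 1.2. MT1E did not reach 1 CPM in any library, and the other 9 members did.

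MTF1 had 367 counts in the PC-3 monoculture, 392 in the PC-3 coculture, 528 in the LNCaP monoculture and 553 in the LNCaP coculture. It differed between the lines and little within a line. SLC30A1, which exports zinc across the plasma membrane, had 836, 901, 543 and 766 counts in the same order. The LNCaP monoculture was its lowest library. SLC39A1, a plasma membrane importer described in prostate cells, had 2009, 2776, 1859 and 2378 counts in that order. Either coculture was above both monocultures.

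SLC39A6, an importer first found as an oestrogen-regulated gene, had 1100 counts in the PC-3 monoculture, 1196 in the PC-3 coculture, 3059 in the LNCaP monoculture and 4499 in the LNCaP coculture. Both LNCaP libraries exceeded both PC-3 libraries. SLC39A10, the closest relative of SLC39A6 in the family, had 692, 666, 1402 and 1872 counts in the same order and the same ranking of the lines. SLC39A14, an importer of zinc, iron and manganese that inflammation is known to raise, had 1373, 1492, 1542 and 1847 counts in that order. It was the most even of the importer members.

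**Figure D2:**
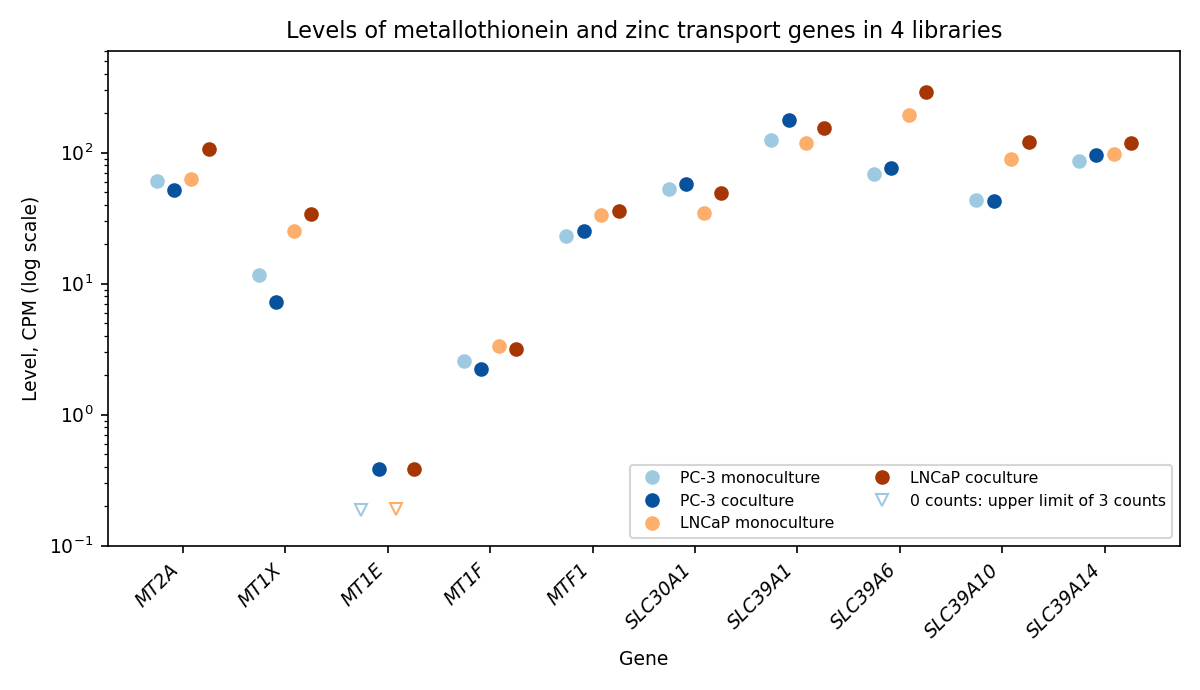
Level of each member gene in CPM on a log scale, 1 point per library and gene; open triangles mark libraries with 0 counts, drawn at the upper limit that 3 counts would give. MT2A in the LNCaP coculture (107 CPM) lies above its other 3 points, and MT1E has points only in the cocultures.

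Divided by transcript length, MT2A led the members in 3 of 4 libraries. Its level was 88.3 CPM per kb (counting interval 82.8 to 94.1) in the PC-3 monoculture, 92.5 (86.9 to 98.5) in the LNCaP monoculture and 156 (149 to 164) in the LNCaP coculture. In the PC-3 coculture MT2A, at 75.6 CPM per kb (70.5 to 81), and SLC39A1, at 76.3 (73.5 to 79.2), did not differ beyond counting error. SLC39A6 was the next in the LNCaP libraries, at 64.5 CPM per kb in monoculture and 96.6 in coculture. MT1X and SLC39A1 followed and overlapped in either LNCaP library, at 50.9 and 50.7 CPM per kb in monoculture and 68.8 and 66 in coculture. In the PC-3 monoculture, SLC39A14 (25.4 CPM per kb), MT1X (23.6) and SLC39A6 (22.9) followed SLC39A1, and neighbours in that order overlapped within counting error. MTF1 was at the low end, at 2.88 to 4.47 CPM per kb over the 4 libraries. Its interval overlapped that of MT1F in 3 libraries, all but the PC-3 monoculture, and MT1E lay below both.

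PC-3 tissues with and without fibroblasts were compared for the levels of metal handling genes. MT2A and MT1X were lower in the PC-3 coculture and SLC39A1 was higher, all by less than 2-fold. MT2A had a ratio of 0.856 (0.778 to 0.941) and MT1X of 0.624 (0.49 to 0.792), whereas MT1F, at 0.87 (0.538 to 1.4), was not separated from 1. The 4 metallothioneins together gave 964 counts against 1190, a ratio of 0.825 (0.757 to 0.899). SLC39A1 was 1.41-fold higher (1.33 to 1.49), and SLC39A6 (1.11, 1.02 to 1.2) and SLC39A14 (1.11, 1.03 to 1.19) were slightly higher. MTF1 (1.09, 0.941 to 1.26), SLC30A1 (1.1, 0.998 to 1.21) and SLC39A10 (0.98, 0.88 to 1.09) were not separated from 1. Counting the 9 members that reached 1 CPM in either library, 0 differed by 2-fold or more, where 2.22% of all 14417 genes at that level were higher and 1.01% lower. The interval lay above 1 for 3 members and below 1 for 2, where this held for 21.5% and 20.4% of all genes.

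LNCaP tissues were compared in the same way. In the LNCaP coculture 7 of 9 members were higher by their counting interval, with MT2A the most changed. MT2A was 1.69-fold higher (1.56 to 1.83) and MT1X 1.35-fold higher (1.18 to 1.54), and MT1F had a ratio of 0.941 (0.625 to 1.41). The 4 metallothioneins together gave 2237 counts against 1448, a ratio of 1.57 (1.47 to 1.68). Among the transporters, SLC39A6 was 1.5-fold higher (1.43 to 1.57), SLC30A1 1.44-fold (1.28 to 1.61), SLC39A10 1.36-fold (1.27 to 1.46), SLC39A1 1.3-fold (1.23 to 1.38) and SLC39A14 1.22-fold (1.14 to 1.31). MTF1 had a ratio of 1.07 (0.945 to 1.2). Again 0 members were at least 2-fold higher or lower, against 4.56% of all genes higher and 3.03% lower. The share of all 14119 genes with an interval above 1 was 27.8%, and 25.8% had an interval below 1, as 0 members did. The median log2 fold of the 9 members was 0.43 in LNCaP coculture and 0.12 in PC-3 coculture, beside 0.00 over all genes in each.

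The measured markers of the added fibroblasts were higher in both cocultures. The fibroblast list holds 12 genes, of which 11 were measured in each coculture comparison, and all 11 had intervals above 1. Their summed level was 263 CPM in the PC-3 monoculture and 518 CPM in its coculture, and 1.65 CPM in the LNCaP monoculture and 529 CPM in its coculture. Summed endothelial markers (5 genes) were at 218 CPM in the PC-3 monoculture, 234 in its coculture, 11.1 in the LNCaP monoculture and 37.1 in its coculture. Summed blood and immune markers (3 genes) were at 44.7, 60.6, 4.88 and 16.1 CPM in that order, and summed PC-3 markers (6 genes) at 1360, 1260, 112 and 442 CPM. The PC-3 list split in the LNCaP coculture against its monoculture. CD44 (776 against 1 counts), CAV1 (297 against 0), VIM (5239 against 1559) and ITGA2 (535 against 208) were higher. LCN2 (6 against 1) and S100A2 (0 against 6) stayed low there. A few genes made up most of several sums. In the PC-3 monoculture SPARC gave 3294 and FBN1 678 of 4192 fibroblast marker counts, and KDR 2681 and PECAM1 806 of 3487 endothelial ones. VWF gave 171 of 176 endothelial marker counts in the LNCaP monoculture and 567 of 576 in its coculture. CD68 gave 678 of 713 blood and immune marker counts in the PC-3 monoculture and 245 of 250 in the LNCaP coculture. Of the fibroblast markers, MMP2 and POSTN were at 0 in either monoculture, and POSTN stayed at 0 in the LNCaP coculture. In bulk RNA, fewer cells of a type and less RNA per cell cannot be told apart, and the part of the fibroblasts in the members' differences was not tested. The lines matched their labels at KLK3, the gene of prostate-specific antigen, which had 0 counts in either PC-3 library and 60226 and 74134 in the LNCaP monoculture and coculture.

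**Figure D3:**
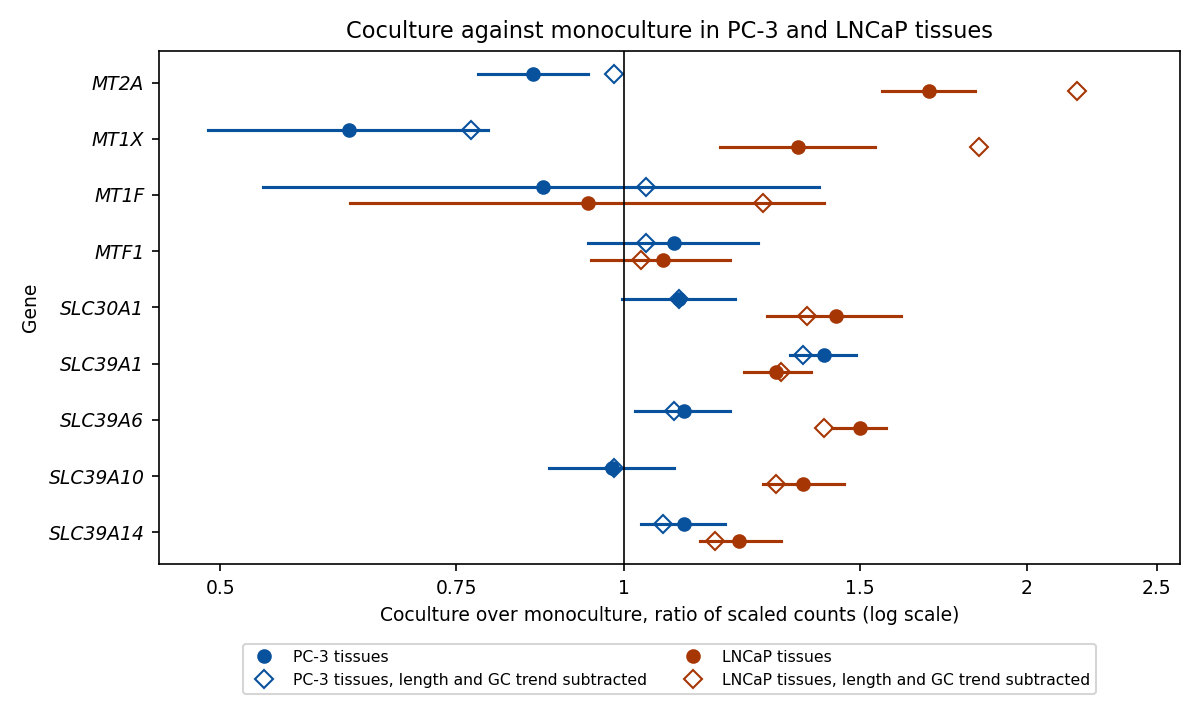
Coculture over monoculture for 9 members, as a ratio of scaled counts on a log scale; filled circles are ratios with their 95% counting interval, open diamonds the ratio after the trend on transcript length and GC content was subtracted, blue for PC-3 and brown for LNCaP tissues. MT2A and MT1X lie below 1 in PC-3 and above 1 in LNCaP tissues, and for MT2A the PC-3 diamond is at 0.983, close to 1.

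Transcript length moved with the coculture folds, and the metallothioneins are the shortest members. Their median coding transcript was 494 nt long for MT1X, 553 nt for MT1F, 683 nt for MT2A and 704 nt for MT1E, against 2322 to 7972 nt for the other members. Over all genes with 501 to 700 nt, the median log2 fold was -0.25 in the PC-3 coculture (376 genes) and -0.36 in the LNCaP coculture (364 genes). Over genes of up to 500 nt it was -0.32 (69 genes) and -0.68 (84 genes). The listed genes of cytosolic ribosomal proteins are short too. In the PC-3 coculture 28 of 28 had intervals below 1 (median log2 fold -0.51), beside 20.4% of all genes. In the LNCaP coculture 27 of 28 had intervals below 1 (median -0.96), beside 25.8% of all genes.

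With a smooth trend on length and GC content subtracted, the PC-3 ratio of MT2A was 0.983 and that of MT1X 0.769. The trend itself stood at -0.20 for MT2A and at -0.29 for MT1X on the log2 scale in PC-3 tissues, beside their log2 folds of -0.22 and -0.67. In the LNCaP coculture the corrected ratios were larger than the uncorrected ones, at 2.18 for MT2A, 1.84 for MT1X and 1.27 for MT1F. In PC-3 tissues the corrected ratio of MT1F was 1.04, so its direction turned with the correction in either coculture. The corrected sum of the 4 genes had a ratio of 0.955 in PC-3 coculture and of 2.06 in LNCaP coculture. The transporters, which are long, changed less, with corrected LNCaP ratios of 1.41 for SLC39A6, 1.37 for SLC30A1, 1.31 for SLC39A1, 1.3 for SLC39A10 and 1.17 for SLC39A14. The corrected ratio of SLC39A6 fell just below its counting interval of 1.43 to 1.57. Corrected medians of the ribosomal protein genes remained negative, at -0.28 for PC-3 tissues and -0.66 for LNCaP ones. The trend thus took up only part of their lower level. How far these genes shaped the trend was not tested. What made short transcripts lower in the cocultures was not tested either.

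**Figure D4:**
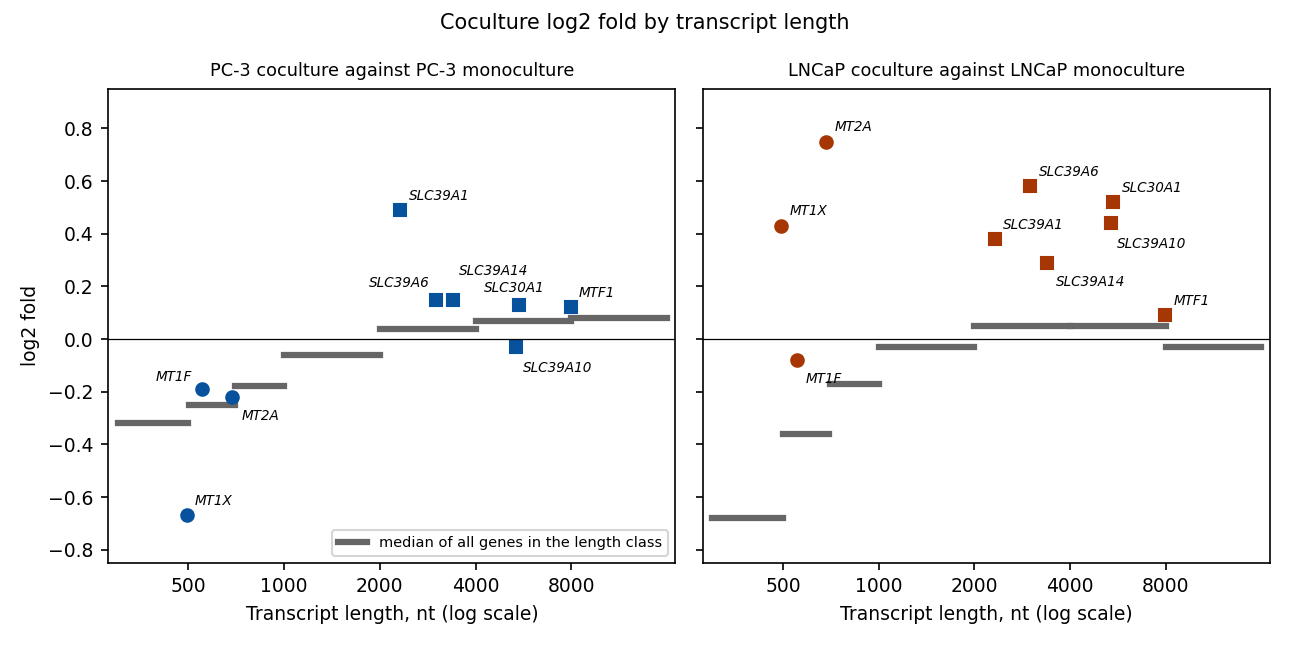
Log2 fold of each member in coculture against monoculture by its median coding transcript length in nt on a log scale, PC-3 on the left and LNCaP on the right; circles are metallothioneins, squares the other members, and grey bars the median of all genes in that length class. In PC-3 tissues MT2A (-0.22) lies near the bar of its class (-0.25), and in LNCaP tissues it lies at 0.75, above a bar at -0.36.

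The coculture folds of MT2A and MT1X differed between the lines beyond counting error. For MT2A the log2 fold in LNCaP minus that in PC-3 tissues was 0.98 (0.80 to 1.15), for MT1X 1.10 (0.72 to 1.49) and for the sum of 4 genes, most of it MT2A, 0.93 (0.77 to 1.08). For the other metallothioneins the interval included 0, at 0.11 (-0.73 to 0.95) for MT1F, 0.01 (-3.15 to 3.17) for MT1E and -0.09 (-2.94 to 2.76) for MT1G. MT2A and MT1X had an interval below 1 in the PC-3 and above 1 in the LNCaP coculture, as did 4.44% of the 13005 genes that reached 1 CPM in both comparisons. Among the transporters the difference was 0.47 (0.29 to 0.65) for SLC39A10, 0.43 (0.30 to 0.57) for SLC39A6 and 0.39 (0.18 to 0.59) for SLC30A1. It was -0.11 (-0.23 to 0.01) for SLC39A1, the importer that was higher in either coculture, and -0.03 (-0.30 to 0.24) for MTF1.

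The LNCaP and PC-3 tissues were next compared with each other, in comparisons that share libraries with those above. In monoculture the level of MT2A was not separated beyond counting error, with a ratio of LNCaP over PC-3 of 1.05 (0.958 to 1.15) and of 0.898 with the length and GC trend subtracted, while MT1X was 2.16-fold higher in LNCaP (1.81 to 2.58). In coculture MT2A was 2.07-fold higher in LNCaP (1.9 to 2.25) and MT1X 4.67-fold higher (3.81 to 5.77). SLC39A6 was 2.81-fold higher in LNCaP monoculture (2.62 to 3.01) and 3.8-fold higher in coculture (3.56 to 4.05). SLC39A10 was 2.05-fold higher (1.87 to 2.25) and 2.84-fold higher (2.6 to 3.11) in the same order. MTF1 was 1.45-fold higher in LNCaP monoculture (1.27 to 1.67) and 1.43-fold in coculture (1.25 to 1.63). SLC30A1 went the other way, with ratios of 0.657 (0.588 to 0.732) and 0.859 (0.779 to 0.947). SLC39A1 had ratios of 0.935 and 0.865, or 0.999 and 0.969 with the length and GC trend subtracted, and SLC39A14 had 1.14 and 1.25.

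At least 2-fold higher in LNCaP were 3 of 9 members in monoculture (MT1X, SLC39A6 and SLC39A10) and 4 of 9 in coculture (also MT2A), beside 22.1% and 20.7% of all genes. At least 2-fold lower were 0 members in either setting, beside 23.6% of all genes in monoculture and 23.6% in coculture. With the length and GC trend subtracted, MT1X in monoculture fell to a ratio of 1.55 and SLC39A10 stood at 2, just under the 2-fold line before rounding, so that SLC39A6 was then the 1 member past it.

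Outside the members, MT1G, another gene of the cluster, differed widely between the lines. It had 0 counts in either PC-3 library, 144 in the LNCaP monoculture and 133 in the LNCaP coculture. By the floor of 3 counts it was at least 48.5-fold and at least 44.8-fold higher in LNCaP, while the counting intervals reached down to 39 and 35.9. Its coculture ratio in LNCaP was 0.94 (0.737 to 1.2), unlike the higher MT2A and MT1X in the same library. Of the 13 listed metallothionein genes 7 were in the table, and MT3 (at most 11 counts) and MT1M (at most 2) stayed under 1 CPM. The genes of the cluster lie side by side on chromosome 16, with MT2A at 56608584 to 56609497, MT1E at 56625781 to 56627112, MT1F at 56657959 to 56659303, MT1G at 56666730 to 56668065 and MT1X at 56682470 to 56684196.

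Sequence shared among these copies limits how far reads can be assigned. Of all 50-base windows in coding transcripts (GENCODE 29), 43.6% in MT1X also occurred in a transcript of another gene, against 16.5% in MT1G, 7.1% in MT1E, 4.24% in MT2A and 3.27% in MT1F. How reads with several matches were counted is not given in the sources used here, so the level of MT1X is uncertain by an unknown amount. For SLC39A1 the share was 57.3%, all of it with a gene model that overlaps it in sequence (AL358472.7), so the level of SLC39A1 is uncertain too. The share was 0.151% for SLC39A14, 0.644% for MTF1 and 0 for SLC30A1, SLC39A6 and SLC39A10.

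Among the 18 measured zinc transporter genes of both families, SLC30A4, a transporter of endosomal vesicles, differed most between the lines. SLC30A4 had 142 and 135 counts in the PC-3 monoculture and coculture and 10030 and 11793 in the LNCaP ones, a ratio of 71.4 (60.5 to 84.9) in monoculture and 88.2 (74.5 to 105) in coculture. SLC30A9, a mitochondrial transporter, was 2.72-fold higher in LNCaP monoculture (2.52 to 2.93), and SLC30A3, a vesicular transporter, had 20 counts against 2 (10.1-fold, 2.46 to 89.2). SLC30A10 had at most 8 counts in any library. The transporters of the secretory pathway, SLC30A5 (1.23), SLC30A6 (0.831) and SLC30A7 (0.802), were within 2-fold. In the LNCaP coculture 7 of 7 measured exporter genes had a log2 fold above 0 (median 0.30, range 0.24 to 0.61), as had 7067 of all 14119 genes. An interval above 1 was seen for 6 of these exporter genes, beside 27.8% of all genes. In the PC-3 coculture 5 of 6 exporter genes were above 0 (median 0.09), as were 7319 of all 14417 genes. Only 1 exporter gene, SLC30A6 (1.19, 1.09 to 1.29), had an interval above 1, beside 21.5% of all genes.

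Of 11 measured importer genes in monoculture, 3 were at least 2-fold higher in LNCaP and 4 at least 2-fold lower, beside 22.1% and 23.6% of all genes. The higher ones were SLC39A6, SLC39A10 and SLC39A8, an importer of zinc, cadmium and manganese, which had 1845 counts in LNCaP against 290 in PC-3 (6.43-fold, 5.68 to 7.3). The lower ones were SLC39A7, which releases zinc from the endoplasmic reticulum (1700 against 6058 counts, ratio 0.284), SLC39A11 (0.384), SLC39A9 (0.389) and SLC39A13 (0.427), the latter pair placed in the Golgi. SLC39A3 (1.4) and SLC39A4 (0.631) lay between, and SLC39A2 had at most 8 counts in any library. In coculture 3 were higher and 3 lower, because SLC39A11 had a ratio of 0.504.

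Of the 11 measured importer genes, 10 had a log2 fold above 0 in the LNCaP coculture (median 0.29), as had 7067 of all 14119 genes. An interval above 1 was seen for 8, beside 27.8% of all genes, among them SLC39A11 (1.51, 1.28 to 1.77) and SLC39A7 (1.31, 1.23 to 1.4). In the PC-3 coculture 8 had a log2 fold above 0 (median 0.15), as had 7319 of all 14417 genes, and 6 had an interval above 1, beside 21.5% of all genes. SLC39A4, an importer of dietary zinc, was lower in either coculture, with 668 against 876 counts in PC-3 (0.777, 0.701 to 0.86) and 412 against 547 in LNCaP (0.767, 0.673 to 0.873). SLC39A8 was higher in PC-3 (1.21, 1.03 to 1.42) and even in LNCaP tissues (1, 0.939 to 1.07).

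**Figure D5:**
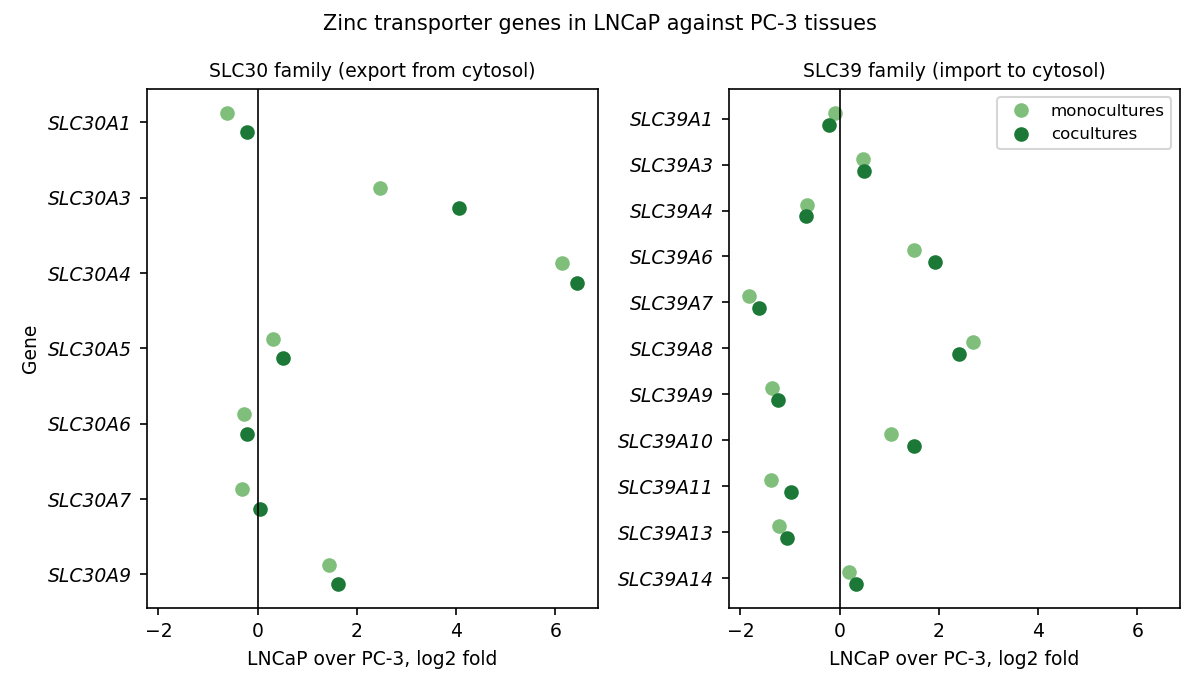
Log2 fold of LNCaP over PC-3 for each measured SLC30 (left) and SLC39 (right) gene, light green in monoculture and dark green in coculture. SLC30A4 stands at 6.14 and 6.44, and the importers spread from -1.82 (SLC39A7) to 2.68 (SLC39A8) in monoculture.

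Other lists bear on the same metals. Their counts stand beside shares over all genes of 21.5% with an interval above 1 and 20.4% below 1 in the PC-3 coculture, and of 27.8% and 25.8% in the LNCaP coculture. Of 8 genes linked to MTF1 or metal response (GCLC, SELENOW, SELENOH, PGF, SLC40A1, TXN, HSPA5 and TXNIP), 2 had an interval above 1 and 4 below 1 in the PC-3 coculture (median log2 fold -0.19), and 2 above and 3 below of 7 measured in the LNCaP coculture (median -0.11). With the length and GC trend subtracted these medians were -0.06 and -0.03. SELENOW, a small selenoprotein, was lower in either, at 0.665 (0.612 to 0.723) in PC-3 and 0.509 (0.456 to 0.568) in LNCaP, and HSPA5, an endoplasmic reticulum chaperone, was higher, at 1.19 (1.16 to 1.22) and 1.56 (1.52 to 1.59). Of 12 copper handling genes, 2 were above and 4 below in PC-3 (median -0.10) and 1 above and 5 below in LNCaP (median -0.24). COX17, a copper chaperone for cytochrome oxidase, was the lowest at 0.7 (0.623 to 0.787) and 0.591 (0.523 to 0.667). Both medians of the copper list were closer to 0 with the length and GC trend subtracted, at -0.04 and -0.06.

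Of 9 citrate genes, 3 were at least 2-fold higher in LNCaP than in PC-3 monoculture and 0 lower (median log2 fold 0.75, beside 0.04 over all genes), where 22.1% of all genes were higher and 23.6% lower. The higher ones were ANKH, a membrane transporter linked to citrate and pyrophosphate export (5057 against 203), ACLY, which splits citrate (19789 against 3333), and IDH2, a mitochondrial isocitrate dehydrogenase (3633 against 1398). Against monoculture, 3 of 9 had an interval above 1 and 0 below in PC-3 coculture (median 0.03), and 7 above and 2 below in LNCaP coculture (median 0.13).

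The counts for stress and hormone lists stand beside the same shares over all genes, 21.5% above and 20.4% below for PC-3 and 27.8% above and 25.8% below for LNCaP tissues. Of 11 metal and oxidative stress genes, 3 had an interval above 1 and 4 below in the PC-3 coculture (median -0.08), with HMOX1, haem oxygenase, the lowest at 713 against 1111 counts (0.654, 0.594 to 0.719). In the LNCaP coculture 7 were above and 1 below (median 0.28), with NQO1, a quinone reductase, at 1288 against 808 counts (1.62, 1.48 to 1.77). Neither gene was separated from 1 in the other line, with HMOX1 at 0.995 (0.861 to 1.15) in LNCaP and NQO1 at 0.947 (0.885 to 1.01) in PC-3. HSPA1A had 62 counts in the LNCaP coculture against 9 in the LNCaP monoculture. Its near-identical copy HSPA1B, with 7825 against 7356 in the same libraries, makes the split of reads between them uncertain. Of the glucocorticoid response genes, 4 were above and 3 below of 9 in PC-3 (median -0.08) and 5 above and 5 below of 10 in LNCaP (median 0.11). NR3C1, the glucocorticoid receptor, had 11 counts in the LNCaP monoculture and 62 in its coculture (5.74, 3 to 12.1), and SGK1, a kinase that the receptor induces, was higher in LNCaP (2.79, 2 to 3.94) and PC-3 coculture (2.21, 1.65 to 2.99). FKBP5, another induced gene, was higher too (1.58 in LNCaP and 1.31 in PC-3). Other genes of the same response list were lower. Among the lowest were PER1 (0.775, 0.705 to 0.851) and TSC22D3 (0.813, 0.737 to 0.896) in LNCaP coculture, and ERRFI1 (0.733, 0.708 to 0.758) and DUSP1 (0.779, 0.689 to 0.88) in PC-3 coculture. ERRFI1 went the other way in LNCaP coculture (1.29, 1.19 to 1.39). Of the IL-6 and acute phase genes, 4 were above and 3 below of 10 in PC-3 (median -0.05) and 5 above and 3 below of 9 in LNCaP (median 0.13), and IL6 itself had 12, 25, 0 and 0 counts in the PC-3 monoculture, PC-3 coculture, LNCaP monoculture and LNCaP coculture.

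The genes whose pattern over the 4 libraries was most like that of a member were taken by distance between centred log2 CPM profiles, among 10051 genes with at least 20 CPM in 1 library. The 3 nearest to MT2A were PLCB4 (distance 0.141), LDOC1 (0.158) and CCDC91 (0.177). LDOC1, for example, had 1976, 1812, 1938 and 3600 counts in the order PC-3 monoculture, PC-3 coculture, LNCaP monoculture and LNCaP coculture. The nearest to SLC30A1 were FAM98A (0.0169), LMAN1 (0.0446) and SYPL1 (0.0583), and those to SLC39A14 were SYNGR2 (0.0277), OGDH (0.0279) and DOP1B (0.0342). Nothing about shared control is read from these distances over 4 libraries.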

How the data were processed

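RNA of 4 engineered tissue groups was sequenced from TruSeq RNA v2 libraries, per the labels' protocols. The authors deposited unscaled estimated counts for each gene symbol. The submitters' processing notes name FastQC, STAR, Partek and hg38 without roles. Versions, annotation and filters are not given in the sources used here. Values were rounded to whole numbers, which summed to 15520243 to 15865690 per library, and scaled with TMM factors (edgeR 4.0.16, R 4.3.3). Log2 folds used a prior count of 2, and ratios are of scaled counts with exact conditional binomial intervals; differences between lines used the delta method. With 1 library per group no test was made. A gene that reached 1 CPM in either library of a comparison was measured, and was counted as higher or lower from 2-fold. Lengths and GC are medians over coding transcripts of the GENCODE 29 basic set, found for 16635 genes, and the trend is a lowess fit (span 0.3, statsmodels 0.14.6). Positions and promoter windows are RefSeq's on GRCh38.p14, which held 17147 symbols. Scripts were tested on simulated data. Members, the 10 lists and the naming rule (all members; every listed metallothionein, SLC30 and SLC39 gene at 1 CPM; the 2 highest and 2 lowest folds at 5 CPM in other lists that are described; the 3 nearest profiles of MT2A, SLC30A1 and SLC39A14) were chosen with earlier results of these data known. In the other lists only some of the genes that the rule selects are named. MT1M, MT3, SLC30A10, SLC39A2, IDH2, NR3C1, HSPA1A in LNCaP, IL6, KLK3, MMP2, POSTN and the other single cell type markers fall outside that rule and were named after their values were seen. Alternatives were other scalings, prior counts, filters and thresholds, the length and GC trend, and other sums. The result of 1 gene of the citrate list is not reported here.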

Additional observations from a re-analysis of the deposited data

Results flagged for a closer look

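MT2A and MT1X moved in opposite directions when fibroblasts were included, lower in the PC-3 coculture (ratios 0.856 and 0.624) and higher in the LNCaP coculture (1.69 and 1.35). The log2 fold of LNCaP minus that of PC-3 was 0.98 for MT2A and 1.10 for MT1X. With 1 library per group this difference was not tested beyond counting error. With the length and GC trend subtracted, MT2A had a ratio of 0.983 in the PC-3 coculture, so the opposite directions did not hold clearly for it there, whereas MT1X had 0.769. MT1X also shares 43.6% of its 50-base windows with other genes.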

How the results depend on the processing

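No paired analysis was possible because the labels give no replicate numbers that pair libraries, and an additive fit of culture with line as a block, which leaves 1 residual degree of freedom, was not run. The main limits are that spread between tissues is unknown, that counting intervals miss it, and that read assignment among gene copies is not given. Of the members' log2 folds under the alternatives, 186 values stayed within the counting interval of the reported fold and 10 fell outside it, all 10 with the length and GC trend subtracted. Members whose interval excluded 1 kept their sign under every alternative run, but with the trend subtracted SLC39A1 between the monocultures (-0.00) and MT2A in the PC-3 coculture (-0.03) came close to no difference. Others changed sign with the trend subtracted, namely MT1F in PC-3 coculture (0.06), in LNCaP coculture (0.34) and between the monocultures (-0.02), and MT2A between the monocultures (-0.16), as did MT1E between the cocultures with DESeq2 size factors (-0.01). The 49 values of the difference between the lines' coculture folds stayed within their intervals. In the PC-3 coculture 1 member passed 2-fold upward without a low-count filter, and 1 was lower at 1.5-fold. In the LNCaP coculture 1 was higher with the trend subtracted, 1 without a filter and 1 at 1.5-fold. In LNCaP against PC-3 monoculture, 1 was higher with the trend subtracted and 1 lower at 1.5-fold. The summed metallothionein ratio was 0.955 with the trend subtracted and 0.696 without MT2A in the PC-3 coculture, and 2.06 and 1.32 in the LNCaP coculture. Between the lines in monoculture it was 1 with the trend subtracted, 1.36 over all 7 metallothioneins and 2 without MT2A, and in coculture 3.79 without MT2A. List medians changed sign for metallothioneins in the PC-3 coculture (0.20), for MTF1-linked genes in LNCaP against PC-3 monoculture (-0.19) and for importers in coculture (0.06), all without a filter. At 5 CPM they did so for glucocorticoid genes in the LNCaP coculture (-0.14) and MTF1-linked genes between the cocultures (0.16). Counts over all genes changed by over 1.5 times as follows. In the PC-3 coculture 906 were higher without a filter, 87 at 5 CPM and 670 at 1.5-fold (320 as reported), and 440, 21 and 557 lower (146 as reported). In the LNCaP coculture 1286, 240 and 1113 were higher (644 as reported) and 753, 154 and 1263 lower, or 270 with the trend subtracted (428 as reported). Between the cocultures 4703 were higher in LNCaP at 1.5-fold (3130 as reported). Apart from these filters, thresholds, sums and the trend, the cause of a change was not tested.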
